A study of Homo sapiens with 2 samples.

Results

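HES1 and 8 other genes of the Notch pathway (HES4, HEY1, NRARP, NOTCH1, NOTCH2, RBPJ, DTX1 and MAML1) were described in the 1 peak list deposited from ChIP-seq for AM-tagged ERG, as 9 of the 19974 protein-coding genes on chromosomes 1 to 22 and X. A gene was counted as having a peak when a summit lay in the gene or within 10 kb of it, and otherwise its nearest peak was taken. HES1 had 3 such peaks and the other 8 genes had none, so the list held peaks at 1 of the 9 genes. Over all protein-coding genes 9.58% had a peak by this measure, which puts 1 of 9 near the background. The genes were chosen with the peak list already known. HES1 was selected on its number of listed peaks within 10 kb, so its peaks are given as a description and no test was made of them.

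The cells were F36P, a human erythroleukaemia line. One library came from cells with the MSCV-PIG retroviral vector carrying AM-ERG, the ETS-family transcription factor ERG joined to an AM tag, and the other from cells with the empty vector (Vector), with genotypes labelled as ERG overexpression and WT. Cells of both kinds had 4 days of puromycin at 1 µg/ml, and the same antibody to the tag was used on both, so the precipitation was aimed at ERG made from the vector and not at that of the cells' own gene. Each group had 1 library, and the deposited list does not say which of them it came from or whether the other was its control. No replicate error could be given, no difference between AM-ERG and Vector could be tested, and a peak list cannot be checked against markers of the cell type.

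Notch receptors such as NOTCH1 and NOTCH2 are cut after they bind a ligand on a neighbouring cell, and their intracellular part moves to the nucleus. There it joins the DNA-binding protein RBPJ and a coactivator of the Mastermind-like group, such as MAML1, and switches on target genes. HES1, HES4 and HEY1 are direct targets that encode basic helix-loop-helix repressors, NRARP is a target whose product feeds back on the pathway, and DTX1 encodes a Deltex ubiquitin ligase that acts on receptors. HES1 is also known for repressing its own gene, and Notch signalling is known in blood for its part in stem cells and T-cell development.

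The promoters below are printed because the HES1 peaks lie on both sides of its start site, because HES4 has a like stretch and no peak near it, and because peaks lie over the start sites of the target gene HEY2 and of NCSTN, both from the wider pathway list described further on. Each is the 250 bases before the start site, 5′ to 3′ along the gene, from RefSeq on GRCh38.p14. Capitals in the HES1, HES4 and HEY2 sequences mark GTGGGAA, a form of the RBPJ-bound letters, on either strand (TTCCCAC on the opposite one). Only that exact string was searched for, so these promoters may hold other forms. Capitals in the NCSTN sequence mark CCGGAAG, letters of an ETS-type site, on either strand (CTTCCGG on the opposite one).
HES1, chr3:194135898-194136147, plus strand: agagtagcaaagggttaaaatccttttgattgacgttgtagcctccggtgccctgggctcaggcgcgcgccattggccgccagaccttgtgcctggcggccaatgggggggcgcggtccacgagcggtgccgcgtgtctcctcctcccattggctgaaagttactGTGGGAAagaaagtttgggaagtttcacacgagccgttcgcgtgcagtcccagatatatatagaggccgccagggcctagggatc
HES4, chr1:1000098-1000347, minus strand: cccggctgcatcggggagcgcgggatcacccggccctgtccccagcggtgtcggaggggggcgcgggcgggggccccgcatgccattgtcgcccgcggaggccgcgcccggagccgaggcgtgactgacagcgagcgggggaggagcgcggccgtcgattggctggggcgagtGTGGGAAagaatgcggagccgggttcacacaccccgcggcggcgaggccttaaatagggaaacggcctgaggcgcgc
HEY2, chr6:125749382-125749631, plus strand: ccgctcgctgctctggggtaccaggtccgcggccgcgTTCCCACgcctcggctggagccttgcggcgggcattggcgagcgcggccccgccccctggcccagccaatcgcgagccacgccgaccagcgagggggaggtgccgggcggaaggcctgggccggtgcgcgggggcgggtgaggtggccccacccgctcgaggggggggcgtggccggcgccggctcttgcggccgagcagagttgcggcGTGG
NCSTN, chr1:160343133-160343382, plus strand: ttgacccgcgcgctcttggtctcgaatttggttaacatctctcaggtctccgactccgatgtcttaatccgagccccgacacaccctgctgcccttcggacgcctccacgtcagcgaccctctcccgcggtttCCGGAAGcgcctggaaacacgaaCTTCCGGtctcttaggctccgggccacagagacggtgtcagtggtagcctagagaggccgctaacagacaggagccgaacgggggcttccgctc

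In HES1 the match to GTGGGAA began 85 bases before the start site, and in HES4 it began 77 bases before. Laid over each other from 3 bases before that match, without gaps, 22 of 32 bases were identical between HES1 and HES4. The letters of the match are among the identical bases by construction, and the length compared was a chosen setting. The identity to be had by chance was not computed. HEY2 had 2 matches, one on the opposite strand 213 bases before the start and one that begins 4 bases before it and runs across it, so that the printed part is cut off. Of 21943 distinct promoters of protein-coding genes of the same table, each 300 bases long with 50 bases after the start included, 5.99% held GTGGGAA. The HES1 promoter also held 4 matches to CACNAG, the N-box bound by HES proteins, of which 1 lay after the start site. Those letters stood in 36.9% of all promoters. A match is a description of letters and not a bound site.

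HES1 lies on chromosome 3 at 194136148 to 194138732 of GRCh38, is 2585 bp long and is read from the plus strand. The first of its peaks, at 194134770 to 194135371, was 602 bp wide and had its summit 1109 bp before the start site. The second, at 194136773 to 194137277, was 505 bp wide with its summit inside the gene, 911 bp after the start. The third, at 194140718 to 194141214, was 497 bp wide with its summit 2224 bp beyond the end of the gene. One peak thus lay before the gene, one in it and one after it. The tables used here give no exons, so whether the second summit was in an exon or an intron was not analysed here.

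The successive summits were 2020 and 3897 bp apart, and the outermost were 5917 bp apart. No peak covered the start site. The first peak ended 777 bp before it and the second began 625 bp after it, so the printed promoter lay in the gap between them. The nearest peaks beyond the 3 were 223 kb before the first and 1302 kb after the last. No other annotated gene began or ended within 1 kb of any of the 3 summits. The nearest gene before HES1 was LOC102724877, annotated as protein-coding, at 12.7 kb, and the nearest after it was the pseudogene RN7SL215P at 6.94 kb. The next protein-coding gene after HES1, CPN2, was 201 kb away.

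The first peak had the highest value on both of the authors' measures. Its fold enrichment, the authors' ratio of fragments to local background at the summit, was 6.51, and its −log10 q, where q is the p-value of the peak adjusted over the genome, was 14.1. The second peak had a fold of 4.98 and a −log10 q of 5.55. The third had a fold of 4.59 and a −log10 q of 6.30, so the latter pair changed places between fold and significance. The median fold was 4.66 and the median −log10 q 5.86 over the 1564 peaks of chromosomes 1 to 22 and X. The first peak ranked 246 by fold and 202 by significance among all 1645 peaks of the list. The second ranked 636 and 883, and the third 827 and 770.

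The fragment counts behind these values were small. The pileup, the number of fragments over the summit recovered from the fold and p, was 33 fragments for the first peak (95% exact Poisson interval 22.7 to 46.3), 18 for the second (10.7 to 28.4) and 23 for the third (14.6 to 34.5). On those intervals the fold was 4.54 to 9.06 at the first peak, 3.06 to 7.72 at the second and 2.98 to 6.80 at the third. The intervals overlap, which is not a test of a difference. An order of strength among the 3 peaks was not tested, and none is claimed. The intervals cover the counting error of the pileup only. The local background, itself a small value, was held fixed, so the intervals of the fold are too narrow. Reads of a library are also not independent molecules. The local background was 4.22, 2.82 and 4.22 fragments, which is 1.20, 0.800 and 1.20 times the median of 3.52 over the peaks on chromosomes 1 to 22 and X. None of the 3 peaks thus stood on a raised background.

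**Figure D1:**
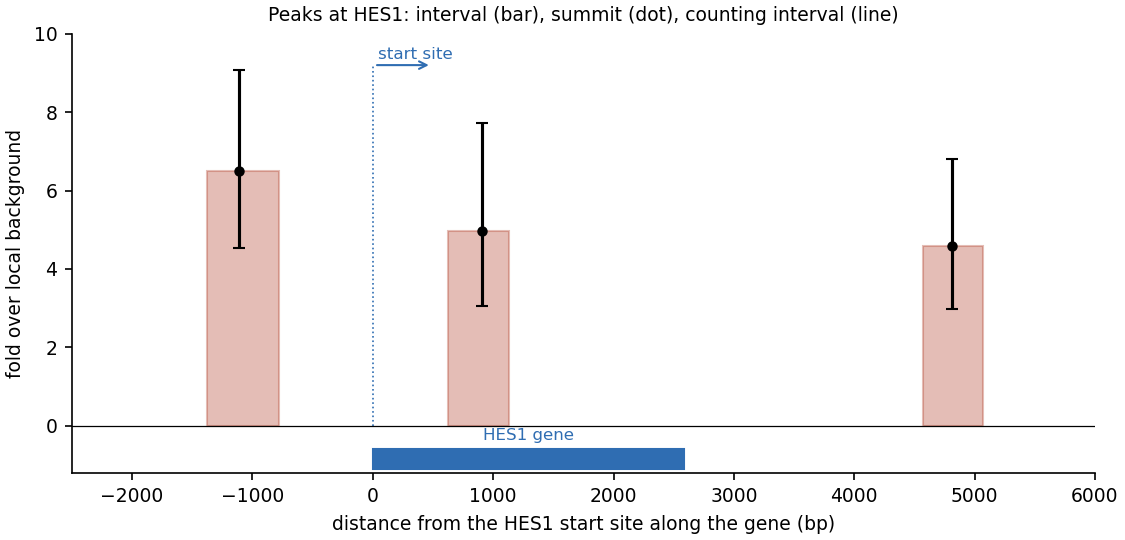
Peaks at HES1, by distance from its start site (bp, horizontal axis) and fold over local background (vertical axis). Bars are the peak intervals, dots the summits and lines the 95% counting intervals of the pileup, with the background held fixed. The peaks lie 1109 bp before the start site, 911 bp after it and 2224 bp beyond the end of the gene, with folds of 6.51, 4.98 and 4.59 whose intervals overlap.

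Among the receptors, neither gene had a peak within 10 kb. NOTCH1, on chromosome 9 at 136494433 to 136546048, was the closest to the limit. Its nearest summit was 11566 bp beyond the 3′ end of the gene and 628 bp from an end of the noncoding gene C9orf163. That peak had a fold of 6.64, a −log10 q of 12.7 and a pileup of 29 fragments on a background of 3.52. The interval of its fold, 4.52 to 9.44, overlaps that of each HES1 peak. A difference in strength from them was not tested, and none is claimed. NOTCH2, on chromosome 1 at 119911553 to 120069662, had its nearest peak 1.70 Mb away. The fold there was 2.46 and the background 16.9 fragments, 4.80 times the median, and no annotated gene ended within 1 kb of its summit.

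Of the nuclear partners, RBPJ on chromosome 4 (26105449 to 26435131) had the most distant peak of the 9 genes, 6.22 Mb away, with 11 fragments at its summit and a fold of 4.11. Of all protein-coding genes 5.18% were farther than that from a peak. The table holds 5 start sites of RBPJ, and none of these promoters overlapped a peak, although the one at 26319496 to 26319795 held GTGGGAA 2 times. MAML1 on chromosome 5 (179732822 to 179777283) was 109 kb from its nearest peak, which had a fold of 4.98, 18 fragments and a background of 2.82. These are the same values as at the second HES1 peak, and 12 peaks on chromosomes 1 to 22 and X shared them (tolerance of 0.01 in the background).

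The other target genes had no peak within 10 kb either. NRARP on chromosome 9 (137299631 to 137302271) was nearest, with a summit 21762 bp away at 143 bp from an end of TOR4A, 23 fragments and a fold of 4.60. HEY1 on chromosome 8 (79764010 to 79767767) was 262 kb from a peak at an end of MRPS28, with a fold of 3.10 and a −log10 q of 1.33. HES4 on chromosome 1 (998964 to 1000097) was 308 kb from a peak between ends of ACAP3 and PUSL1, at 352 and 315 bp, with a fold of 4.98. The HES4 promoter printed above thus shares its RBPJ letters with HES1 while its nearest listed peak is 308 kb away. At HES1 those letters were not covered by a peak either. DTX1 on chromosome 12 (113056730 to 113098025) was 87.2 kb from a peak of 4.56 fold.

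Across the 9 genes the distance to the nearest summit ran from 0 at HES1 to 6.22 Mb at RBPJ. Over all protein-coding genes the median distance was 412 kb, with quartiles of 98.9 and 1480 kb. Of the 8 genes without a peak, 6 were nearer than that median and NOTCH2 and RBPJ were farther. NOTCH1 lay just outside the limit of 10 kb, at 11566 bp, with NRARP next at 21762 bp, and the HES1 summit nearest to it from inside was the third, at 2224 bp.

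**Figure D2:**
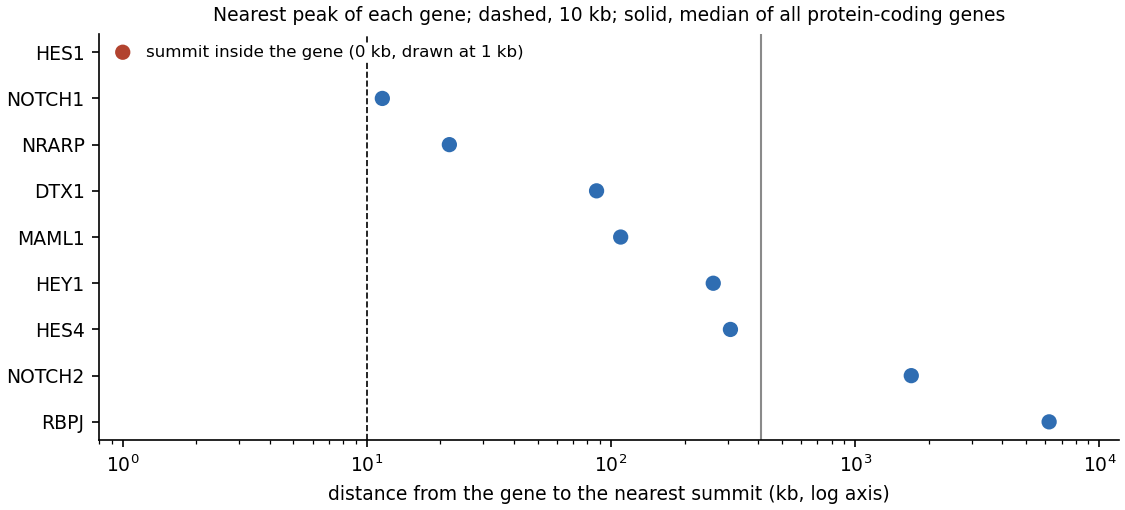
Distance from each of the 9 genes to its nearest peak summit, in kb on a log axis, with the 10 kb limit dashed and the median of all protein-coding genes (412 kb) as a solid line. HES1 has a summit inside the gene, NOTCH1 lies just beyond the limit at 11566 bp, NRARP is next at 21762 bp, and RBPJ is farthest at 6.22 Mb.

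HES1 was then set beside the other genes with several peaks. Having 3 or more summits was rare, at 14 genes or 0.0701% of the 19974. Only 1 of the 14, PITPNM2, had 4. Among the 3161 protein-coding genes of at most 5 kb, 196 (6.20%) had a peak and 2 (0.0633%) had 3: HES1 and ZFP36, which encodes an RNA-binding protein that destabilises cytokine mRNAs. ZFP36 and its neighbour PLEKHG2 were counted for the same 3 peaks.

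Summits were counted only in a gene or within 10 kb of it, so the possible span depends on gene length. That length was 2.585 kb for HES1 and 437 kb for MAML3. Within this limit HES1 had the shortest span of the 14. Its summits covered 5.92 kb, against 9.88 kb at ZFP36 and PLEKHG2, 15.1 kb at CD33, a myeloid surface receptor gene, and 322 kb at MAML3, with a median of 24.5 kb over the other 13. The smallest spacing was not at HES1: CD33 had a pair of summits 717 bp apart and ZNF263 a pair 727 bp apart, against 2020 bp at HES1. At 10 of the other 13 genes at least 1 of the peaks lay within 1 kb of an end of another protein-coding gene. HES1, CD33, PPP1R9B and MAML3 had no such peak. Chromosome 19 carried 8 of the 14 genes (ZFP36, PLEKHG2, TRIM28, ZNF625, ZNF69, TGFB1, CD33 and U2AF2), and the rest were HES1, MAML3, PITPNM2, PPP1R9B, ZNF263 and TUBA4B.

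By highest fold HES1 was in the middle of this group, an order that was not tested. Its highest fold of 6.51 (interval 4.54 to 9.06) was exceeded at 6 of the other 13 genes. The largest was 11.2 at ZFP36 and PLEKHG2, which were counted for the same peaks. The HES1 median background of 4.22 fragments was exceeded at 7 of the 13. Over the 13 the values ran from 2.49 at ZNF263 to 19.7 at ZNF625.

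**Figure D3:**
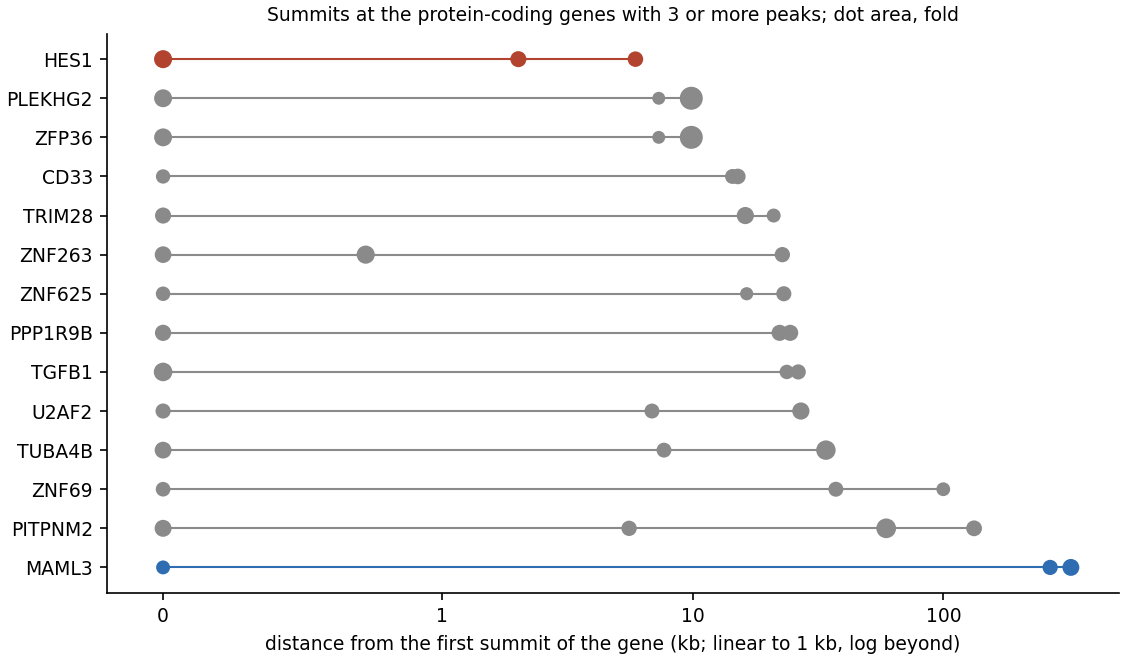
Summits of the 14 protein-coding genes with 3 or more peaks, placed by the distance in kb from the first summit (linear to 1 kb, log beyond) and ordered by span; the area of a dot is the fold. HES1 at the top has the shortest span, 5.92 kb, and MAML3 at the bottom the longest, 322 kb.

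The spacing was also compared without regard to genes. Of the 1518 runs of 3 successive summits on a chromosome, 45 were as short as the one at HES1 or shorter. Of these, 43 were on chromosome 21, all at least 375 kb from an end of a protein-coding gene and on a median background of at least 23.2 fragments. One more was on chromosome 1 at 125179135 to 125182547, with a median background of 1507 fragments and 3717 kb from the nearest end of a protein-coding gene. The remaining run was that at HES1, on a median background of 4.22 fragments. The next longer run outside chromosome 21 spanned 8015 bp, on chromosome 17 from 43278624 to 43286639, with a background of 14.1 fragments. All shorter runs were thus at least 375 kb from a protein-coding gene and on a higher background than that at HES1, which had been chosen in part for its close peaks.

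A wider list of 74 Notch pathway genes, which includes the 9, was described by role. By the same measure 11 of the 74 had a peak, which is 14.9% against 9.58% of all protein-coding genes, and the list held 16 such peaks. HES1 and MAML3 had 3 peaks each, and 8 genes had 1. Genes over 100 kb took part with 5 of 18 (8.15% of all such genes had a peak), and genes of at most 100 kb with 6 of 56 (9.87%). The list was written with earlier results of these data known, and the shares were not tested. The counts by role that follow are small, were not tested either and stand beside the same 9.58%.

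No ligand gene (DLL1, DLL3, DLL4, JAG1, JAG2 or DLK1) and none of the 4 receptor genes had a peak. DLL3 was the nearest of the ligands at 53.1 kb and JAG1 the farthest at 4687 kb. Among the 14 genes for receptor modification and cleavage, 2 had a peak. NCSTN encodes nicastrin, a subunit of the gamma-secretase that cuts the receptor, and its summit lay 255 bp before the start site with a fold of 5.41 (interval 3.45 to 8.15) and 21 fragments. The summit was also 122 bp from an end of COPA, so the peak cannot be assigned to either gene. MFNG, a Fringe glycosyltransferase gene whose product modifies receptors, had a peak of 5.53 fold inside the gene. Its summit was 1655 bp from the nearer end of the gene. No strand was at hand for MFNG, so whether that end is its start was not analysed here. Of the 12 genes for endocytosis and turnover only ITCH, a ubiquitin ligase gene, had a peak, of 5.66 fold and 220 bp after its start site.

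Among the 10 genes of the nuclear complex and its coactivators, MAML3 alone had peaks. MAML3 encodes a Mastermind-like coactivator, is 437 kb long and held all 3 of its summits inside the gene, read from the minus strand. The peak nearest the start site, 2625 bp after it, was 1306 bp wide, with 52 fragments at its summit and a fold of 5.61. Its background of 8.45 fragments was 2.40 times the median. The other MAML3 summits were 58511 and 324868 bp after the start, with folds of 4.39 and 3.59. HES1 and MAML3 thus both had 3 peaks, at spans that differ from 5.92 to 322 kb.

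Of the 13 corepressor genes, 3 had a peak. KDM5A, a histone demethylase gene whose product works with RBPJ in repression, had the highest fold of the wider list, 7.74 (5.43 to 10.7), with a −log10 q of 17.3 and 34 fragments. Its summit was 117 bp before the start site of KDM5A and 90 bp from an end of CCDC77, with the noncoding gene LOC105369594 at 596 bp, so this peak is also shared. CTBP2, a corepressor gene of the C-terminal binding protein family, had 1 peak of 5.58 fold, 10396 bp from an end of the gene.

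The targets and their relatives had peaks at 4 of 15 genes, a count that includes HES1, which was chosen for its peaks. Besides HES1 these were HEY2, BHLHE40 and PTCRA. HEY2, a relative of HEY1, had its summit 78 bp after the start site, with a fold of 5.16 (3.17 to 8.001) and 18 fragments, over the RBPJ letters at the start and not over those 213 bases before it. The summit was also 285 bp from an end of the noncoding gene HEY2-AS1. BHLHE40, a related repressor gene, had a summit 398 bp before its start with a fold of 5.17 and 20 fragments, 922 bp from an end of the noncoding gene BHLHE40-AS1. PTCRA, the pre-T-cell receptor alpha gene and a Notch target in T cells, was counted for a peak 3756 bp beyond the gene, 114 bp from an end of CNPY3-GNMT, with a fold of 6.08. HES2, HES3, HES5, HES6, HES7, HEYL, HELT and BHLHE41 had none.

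The wider list held 16 peaks. The 13 at genes other than HES1 had folds of 3.59 to 7.74, and the 3 HES1 peaks fell within that range. By position 6 of the 16 had the summit within 1 kb of an end of the gene itself. Another 7 lay inside the gene farther from its ends. The remaining 3 lay outside, farther than 1 kb (those before and after HES1 and the one at PTCRA). The 63 genes without a peak were a median of 340 kb from one.

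**Figure D4:**
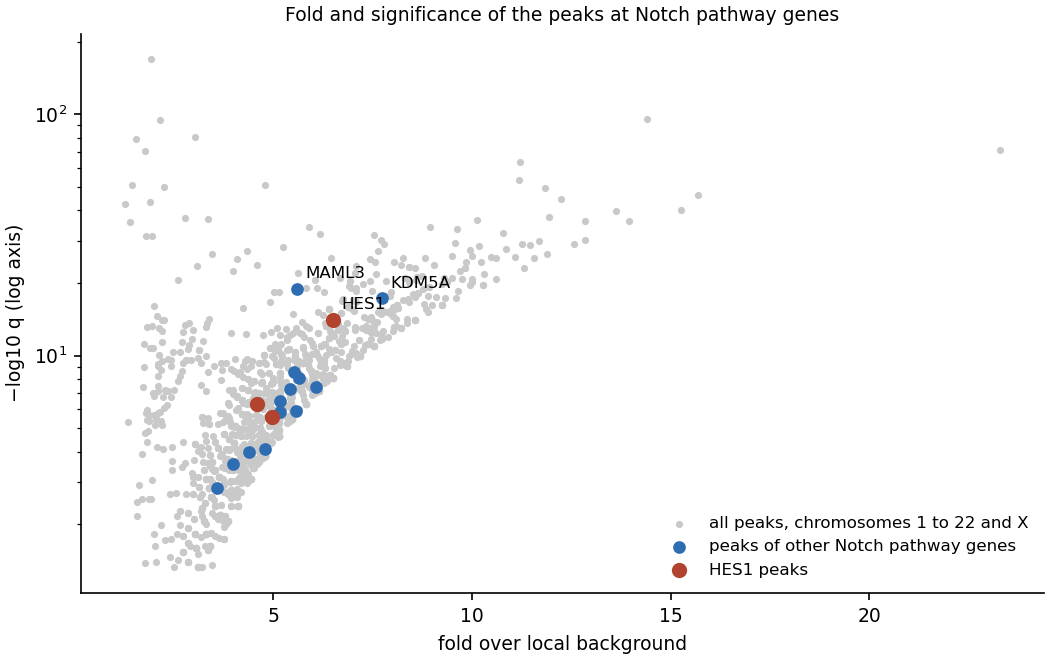
Fold over local background against −log10 q (log axis) for the 1564 peaks on chromosomes 1 to 22 and X in grey, the 13 peaks of the other Notch pathway genes in blue and the 3 HES1 peaks in red. The first HES1 peak, at 6.51 and 14.1, lies above its neighbours at 4.98 and 4.59, while the KDM5A peak has the highest fold of the pathway, 7.74.

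The promoters were last searched for letters of ETS sites on both strands. The core GGAA was in 95.2% of all promoters and stood 3 times in that of HES1, once inside GTGGGAA. The longer CCGGAAG was in 12.8% of the 21943 promoters and in 57.4% of the 371 that had a peak summit inside them. The NCSTN promoter, covered by its peak, held CCGGAAG 2 times, 117 and 94 bases before the start and on opposite strands, and that of KDM5A held it once. No match was in the promoters of HES1, HES4, HEY2, ITCH or BHLHE40. Nor was ACAGGAA (6.37% of all promoters) or AGGAAG (33.5%). AGGAAG stood in the promoters of NOTCH2, MAML1 and RBPJ (the one at 26163208 to 26163507) and not in those of NOTCH1 or NRARP. No peak overlapped any of these. The 3 HES1 peaks lie outside the printed stretch, and their own sequence was not analysed here. The summits at NCSTN, HEY2, ITCH and BHLHE40 also lay outside the promoter bases searched, so these promoters are not among the 371. The ITCH and BHLHE40 peaks reached only an edge of those bases, so the search says little about the sequence under these peaks.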

How the data were processed

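AM-tag ChIP-seq of F36P cells with AM-ERG or Vector was measured in 1 library each, from chromatin fixed in 1% formaldehyde and cut with micrococcal nuclease for 20 minutes, per the labels' protocols. Bowtie2, MACS2, deepTools and build hg38 are named in the submitters' processing notes; no version, setting or read depth is stated there. The authors deposited 1 headerless list of 1645 narrow peaks, giving for each peak the −log10 of p and q, a fold (ratio over local background), a score and the summit offset. The largest q was 0.0474.

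The pileup and background at each summit were recovered from the deposited fold and −log10 p, reading the fold as (pileup + 1)/(background + 1) and p as a Poisson tail. This returned p for 1645 of 1645 peaks within 0.001 in log10, and 300 of 300 peaks when tested on simulated data. Genes, start sites and promoters came from RefSeq (GRCh38.p14), and all 9 and all 74 genes were matched, CIR1 as CIRSR. The 81 peaks on other sequences were left out. Members and lists were chosen with earlier results of these data known. Named genes were the 9, the listed pathway genes with a peak, the genes with 3 or more peaks, and genes at those peaks. One gene that this rule selects is not reported here. Alternatives covered the window, threshold, summit and background. Tools were Python 3.11.15, numpy 2.4.6, SciPy 1.17.1, pandas 2.3.3 and matplotlib 3.10.9.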

Additional observations from a re-analysis of the deposited data

How the results depend on the processing

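No paired analysis was possible because there was only 1 library per group and no numbered replicate. HES1 kept its 3 peaks at windows of 5, 20 and 50 kb, by overlap of intervals and without peaks on over 2 times the median background, and had 2 (those before and after the gene) among the upper 50% of peaks by significance. Of the 9 genes 2 had a peak at 20 kb, with NOTCH1, and 3 at 50 kb, with NRARP as well, beside 11.9% and 17.7% of all protein-coding genes. The wider list had 19 genes with a peak at 50 kb and 10 in the upper 50% by significance, where 5.0015% of all protein-coding genes had one. Between peak midpoints in place of summits the HES1 span was 5896 bp. Genes with 3 or more peaks numbered 7 at 5 kb, 38 at 20 kb, 174 at 50 kb and 4 in the upper 50% by significance, so the comparison of HES1 with such genes depends on the window. In all, 24 of 34 alternative values stayed within 1.5 times the reported count or share or, for the span, did not move. Summits of 18 to 33 fragments limit what can be said of strength.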

Other observations

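The genes named here were chosen after their values were seen. The peak nearest to DTX1, at 87.2 kb, had its summit 489 bp from an end of RITA1, whose product binds RBPJ and takes it out of the nucleus, and 246 bp from an end of DDX54. RITA1 was not on the wider list. The peak had 21 fragments and a fold of 4.56.

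Other pathway genes without a peak by the 10 kb measure had a summit within 50 kb. PSENEN, a gamma-secretase subunit gene, was 10784 bp from a summit of 4.898 fold at 127 bp from an end of PROSER3. RFNG, a Fringe gene, was 25.2 kb from a summit of 3.98 fold near ends of CENPX and LRRC45. MIB2, a ligase gene that acts on ligands, was 28.5 kb from one of 7.69 fold at an end of CDK11B. PSEN2, another gamma-secretase subunit gene, was 36.2 kb from one of 5.97 fold at an end of COQ8A. TLE2 and HES6 were 47.1 and 49.1 kb from summits of 6.75 and 4.37 fold that had no gene end within 1 kb.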
